A study of Mus musculus with 12 samples.

Results

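The genes described here are 47 members of the DNA damage response, chosen by name from the 47069 genes of the expression table. They are 10 damage kinases and their mediators, 16 homologous recombination genes, 11 Fanconi pathway genes, 4 end-joining genes, and 6 genes of mismatch repair, single-strand break repair, lesion bypass and adduct recognition. All 47 had a mean of at least 0.1 FPKM (fragments per kilobase of transcript, scaled to the mapped reads of the library) over the 12 libraries and were tested. The members are different genes measured in the same libraries and are not replicates of each other.

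Poly(A) RNA was sequenced from mice at postnatal day 14 (P14), in 2 compartments and 2 genotypes, with 3 libraries in each of the 4 groups. WT isolated hepatocytes and WT whole liver came from wild type mice, for which the labels name no other allele. Cdk1 Liv-/- isolated hepatocytes and Cdk1 Liv-/- whole liver came from Cdk1 flox/flox mice carrying Albumin-Cre. The Albumin promoter drives Cre in cells of the hepatocyte lineage, so cells of other lineages are expected to keep Cdk1, the kinase that drives entry into mitosis. Which cells kept it was not tested here. The comparison asks how the expression of repair genes differed in livers whose hepatocytes cannot divide. The study's methods speak of 3 or more biological replicates in every experiment. The labels do not name the animal behind each library, so the p-values below set differences between group means against the spread between these libraries.

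DNA repair genes are used in every cell that copies its genome. ATM and ATR are kinases that sense DNA breaks and stalled replication forks and pass the signal to CHEK2 and CHEK1, which hold the cell cycle. Homologous recombination copies the sister chromatid to mend breaks and collapsed forks, the Fanconi pathway clears crosslinks between the strands, and many genes of both are transcribed most in S phase. Division is common among hepatocytes of the newborn liver and rare in the adult liver.

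Cdk1 itself was measured first, since it checks the labels. Its level was 27.9, 20.4 and 28.2 FPKM in WT hepatocytes and 9.68, 11.8 and 6.87 FPKM in Cdk1 Liv-/- hepatocytes. In whole liver it was 25.3, 22.7 and 21.5 FPKM in WT and 11.7, 12.1 and 14.2 FPKM in Cdk1 Liv-/-. Every Cdk1 Liv-/- library was below every WT library of its compartment, as the labels require. The log2 fold change was -1.40 in hepatocytes (SE 0.22, adjusted p = 0.0148) and -0.85 in whole liver (SE 0.098, adjusted p = 0.00353). Gene-level FPKM also counts reads from the parts of Cdk1 that Cre leaves in place.

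The libraries differed in other ways that bear on the values. Cdk1 Liv-/- whole liver replicate 3 had 158 FPKM of Xist, the transcript of the inactive X chromosome, and 0 FPKM summed over 4 Y-linked genes. The remaining 11 had 0 to 0.14 FPKM of Xist and a Y-linked sum of 48.4 to 62.1 FPKM, while the study's methods describe the use of male mice. The main whole-liver counts are therefore given with and without this library. An FPKM of 1 on 1 kb of transcript stood for 34.7 reads in Cdk1 Liv-/- hepatocyte replicate 3, the lowest, and 49.9 reads in WT hepatocyte replicate 1, the highest. By this estimate, taking the longest annotated coding transcript of each gene, the members rested on 28 reads (Rad51b in WT whole liver replicate 3) to 14160 reads. With that length 46 of 47 had at least 100 reads in every library, and shorter transcripts would mean fewer reads. The members' group means in WT hepatocytes ran from 0.483 to 52.4 FPKM, with Ddb1 the highest and a median of 2.93 FPKM.

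The hepatocyte label was checked against 7 hepatocyte markers, whose summed level was 80365, 89179 and 84745 FPKM in WT hepatocytes and 55705, 58001 and 53639 FPKM in Cdk1 Liv-/- hepatocytes, most of it Alb. The sum hides genes that moved the other way, since of the 7 markers 2 were called higher and 2 lower in hepatocytes. Cps1 was at 764, 625 and 618 FPKM in WT and 851, 1166 and 1186 FPKM in Cdk1 Liv-/- hepatocytes, and Hnf4a at 111, 101 and 102 FPKM and 141, 120 and 170 FPKM. In whole liver Cps1 was at 708, 555 and 630 FPKM in WT and 305, 325 and 346 FPKM in Cdk1 Liv-/-, and of the 7 markers 4 were called lower there and 0 higher by limma. The whole-liver sum was 83312, 81629 and 84766 FPKM in WT and 65062, 59267 and 63589 FPKM in Cdk1 Liv-/-. Markers of other cells were present in the hepatocyte libraries too, and no marker of any list was at 0 in all libraries. The 6 endothelial markers, led by Clec4g, summed to 98.8, 66.3 and 177 FPKM in WT hepatocytes and 44.6, 28.0 and 31.4 FPKM in Cdk1 Liv-/- hepatocytes. The 7 erythroid markers summed to 162, 139 and 403 FPKM in WT hepatocytes and 81.6, 123 and 53.9 FPKM in Cdk1 Liv-/- hepatocytes. Hbb-bs led this list on average over all libraries. In Cdk1 Liv-/- hepatocytes Tfrc led instead, at 37.0, 51.2 and 34.8 FPKM, with Hbb-bs at 27.3, 44.5 and 9.51 FPKM. The Kupffer cell and macrophage sum was 225, 120 and 415 FPKM in WT and 143, 111 and 92.3 FPKM in Cdk1 Liv-/- hepatocytes, and the stellate cell sum 134, 86.3 and 237 FPKM and 82.3, 77.6 and 64.2 FPKM. WT hepatocyte replicate 3 thus had the highest level of these markers in its compartment. B cell markers summed to 2.76, 1.49 and 6.08 FPKM in WT and 0.73, 0.59 and 0.40 FPKM in Cdk1 Liv-/- hepatocytes, and T and NK cell markers to 3.46, 2.51 and 4.88 FPKM and 1.17, 0.75 and 0.90 FPKM. The neutrophil sum was 12.7, 10.5 and 43.9 FPKM in WT and 18.1, 8.19 and 16.8 FPKM in Cdk1 Liv-/- hepatocytes. The cholangiocyte markers went up instead, from 1.33, 1.14 and 1.41 FPKM to 3.82, 4.13 and 4.50 FPKM, and 3 of 4 were called higher.

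In whole liver, some marker lists of other cells were higher in Cdk1 Liv-/- and others were not. The 6 stellate cell markers, led by Dcn, summed to 244, 245 and 253 FPKM in WT and 412, 409 and 422 FPKM in Cdk1 Liv-/-. The 4 cholangiocyte markers, of which Krt19 had the most in whole liver, summed to 4.53, 5.11 and 3.38 FPKM in WT and 21.0, 8.15 and 11.8 FPKM in Cdk1 Liv-/-. The 7 Kupffer cell and macrophage markers, led by Cd5l, summed to 298, 337 and 350 FPKM in WT and 409, 592 and 452 FPKM in Cdk1 Liv-/-. The 5 neutrophil markers, led by S100a9, summed to 63.4, 39.4 and 60.3 FPKM in WT and 76.2, 278 and 220 FPKM in Cdk1 Liv-/-. The endothelial sum was 83.1, 98.4 and 118 FPKM in WT and 101, 126 and 102 FPKM in Cdk1 Liv-/- whole liver, and the erythroid sum 731, 790 and 1349 FPKM and 734, 1157 and 908 FPKM, so these groups overlapped. B cell markers summed to 12.2, 10.9 and 13.3 FPKM in WT and 4.93, 11.7 and 8.22 FPKM in Cdk1 Liv-/-, and T and NK cell markers to 9.13, 14.8 and 7.87 FPKM and 5.36, 7.72 and 5.65 FPKM. The part of these cells in the results below was not tested. In such bulk samples, fewer cells of a type and less RNA per cell cannot be told apart.

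Against WT hepatocytes, more repair genes were called higher than lower in Cdk1 Liv-/- hepatocytes, and 29 of 47 were not called. Of the 47 members, 17 were called higher, that is at an adjusted p of at most 0.1, where 12.1% of all 17386 genes tested were, and 1 member was called lower, where 6.61% of all genes were. When the log2 fold change also had to reach 1 or -1, 8 members were called higher, where 4.20% of all genes were, and 0 lower, where 2.17% were. All Cdk1 Liv-/- libraries lay above all WT libraries for 26 members, where 20.6% of all genes did, and below for 1 member, where 13.4% did. The median log2 fold change of the members was 0.46 and that of all genes tested was 0.05. Homologous recombination genes had a median of 0.61, Fanconi genes 0.77 and damage kinases and mediators 0.54. End-joining genes had a median of 0.22, and the group with mismatch repair 0.14.

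**Figure D1:**
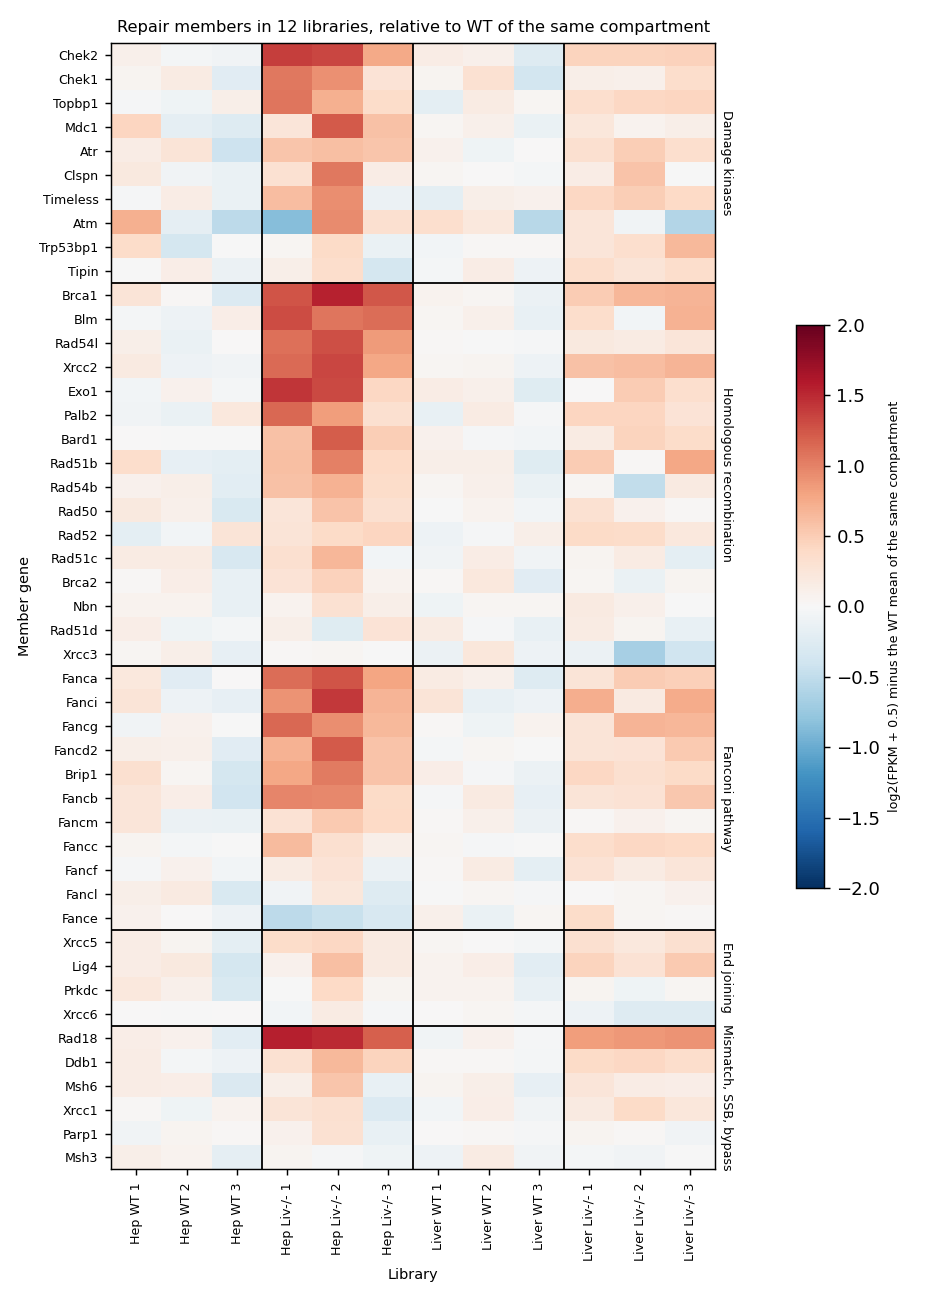
Each row is a member and each column a library (Hep, isolated hepatocytes; Liv-/-, Cdk1 Liv-/-); colour gives log2(FPKM + 0.5) minus the WT mean of the same compartment, and lines part the roles (SSB, single-strand break) and the groups. The hepatocyte Cdk1 Liv-/- columns are darkest on average for Rad18, Brca1, Blm and Chek2, whose log2 fold changes were 1.41, 1.35, 1.16 and 1.16.

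The count of members in hepatocytes depended on single libraries, as did that of all genes. Without WT replicate 1, 2 or 3, the members called higher were 11, 9 and 8, where 6.65%, 7.33% and 8.61% of all genes were. Leaving out Cdk1 Liv-/- replicate 1, 2 or 3 gave 9, 10 and 18, where 8.81%, 9.33% and 8.95% of all genes were. The fit on all 12 libraries called 27 members higher, where 19.8% of all genes were, and those it added were Atr, Mdc1, Palb2, Rad51b, Rad50, Rad52, Fancb, Fancc, Fancm and Xrcc5. The member called lower was lost without WT replicate 1 or 2 and without Cdk1 Liv-/- replicate 1 or 2. Among the Cdk1 Liv-/- hepatocyte libraries, replicate 2 had the highest level in 33 of 47 members and replicate 3 the lowest in 33, while WT replicate 3 was the lowest WT library in 31. The members Blm, Brca1, Chek2, Fanca, Rad18, Rad54l and Xrcc2 kept their hepatocyte call under every alternative run at an adjusted p of at most 0.1, including each library left out.

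Among the damage kinases and mediators, 3 of 10 were called higher in hepatocytes, where 12.1% of all genes were. Chek2 (chr5:110839979-110874145 of mm10, as are the positions below), the effector kinase of ATM, was at 2.06, 1.81 and 1.77 FPKM in WT hepatocytes and at 5.69, 5.47 and 3.52 FPKM in Cdk1 Liv-/- hepatocytes. The groups did not overlap, and replicate 3 was the lowest of the Cdk1 Liv-/- libraries. Its log2 fold change was 1.16 (SE 0.20, adjusted p = 0.0199, n = 3 per group). Chek1 (chr9:36708482-36727065), the effector kinase of ATR that restrains CDK activity in S phase, was at 4.12, 4.46 and 3.28 FPKM in WT hepatocytes and at 8.65, 7.82 and 4.85 FPKM in Cdk1 Liv-/- hepatocytes. The groups did not overlap, though the lowest Cdk1 Liv-/- library, replicate 3, stood close to the highest WT library. The log2 fold change of Chek1 was 0.74 (SE 0.23, adjusted p = 0.0978), next to the threshold, and its adjusted p ranged from 0.0329 to 0.225 over the alternatives.

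Of the kinases that start the signal, Atm was not called in hepatocytes in any fit, and Atr was called in some. Atr (chr9:95857597-95951781) was at 3.37, 3.68 and 2.13 FPKM in WT hepatocytes and at 4.62, 4.77 and 4.62 FPKM in Cdk1 Liv-/- hepatocytes. The groups did not overlap, but WT replicate 3 lay well under the other WT libraries and the log2 fold change of 0.57 (SE 0.20) had an adjusted p of 0.126. The adjusted p of Atr was 0.0229 in the fit on all 12 libraries, below 0.1 with a filter of mean FPKM at least 1, and up to 0.245 in the other alternatives. Atm (chr9:53439149-53536740) was at 3.6, 1.7 and 1.24 FPKM in WT hepatocytes and at 0.89, 4.3 and 2.62 FPKM in Cdk1 Liv-/- hepatocytes. Both groups of Atm spread widely and overlapped, so its log2 fold change of 0.14 had an SE of 0.53 (adjusted p = 0.893).

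Of the mediators, Topbp1, which activates ATR at stalled forks, was called higher in hepatocytes, with a log2 fold change of 0.72 (adjusted p = 0.0612). Mdc1, which binds marked chromatin around a break, was not called at 0.69 (adjusted p = 0.206), nor were Clspn at 0.50, which brings CHEK1 to ATR, and Timeless at 0.48, which steadies the fork. Tipin, the partner of TIMELESS, had a log2 fold change of 0.04 and Trp53bp1, a break-site scaffold that favours end joining, 0.10, and neither was called.

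Of the homologous recombination genes, 7 of 16 were called higher in hepatocytes, where 12.1% of all genes were, and 0 lower, where 6.61% were. Brca1 (chr11:101488764-101551955), a ubiquitin ligase that starts recombination at breaks, was at 1.71, 1.37 and 1.02 FPKM in WT hepatocytes and at 3.91, 4.87 and 3.88 FPKM in Cdk1 Liv-/- hepatocytes. Every Cdk1 Liv-/- library was above every WT library, with a log2 fold change of 1.35 (SE 0.19, adjusted p = 0.0105). Blm (chr7:80454733-80535119), the Bloom syndrome helicase that takes apart joined DNA molecules, was at 2.49, 2.37 and 2.85 FPKM in WT hepatocytes and at 7.06, 5.91 and 6.11 FPKM in Cdk1 Liv-/- hepatocytes. Its groups were well apart, with a log2 fold change of 1.16 (SE 0.13, adjusted p = 0.00567). Rad54l (chr4:116094264-116123690), a DNA motor that helps the broken strand pair with the intact copy, was at 1.55, 1.22 and 1.39 FPKM in WT hepatocytes and at 3.54, 4.11 and 2.91 FPKM in Cdk1 Liv-/- hepatocytes. The log2 fold change was 1.08 (SE 0.17, adjusted p = 0.0142), and the groups did not overlap.

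Xrcc2 (chr5:25689812-25705825), which works at resected DNA ends in homologous recombination, was at 1.58, 1.22 and 1.25 FPKM in WT hepatocytes and at 3.52, 4.14 and 2.64 FPKM in Cdk1 Liv-/- hepatocytes. The groups were apart, with a log2 fold change of 1.08 (SE 0.19, adjusted p = 0.0218). Rad51b, Rad51c, Rad51d and Xrcc3, which act at the same step, were not called in hepatocytes. The log2 fold changes were 0.68 for Rad51b, 0.30 for Rad51c and 0.05 for Rad51d. Xrcc3 (chr12:111803192-111813873) was at 3.03, 3.22 and 2.55 FPKM in WT hepatocytes and at 2.99, 3 and 2.91 FPKM in Cdk1 Liv-/- hepatocytes, with overlapping groups and a log2 fold change of 0.02 (SE 0.14, adjusted p = 0.945). The 5 genes of this step thus spanned log2 fold changes of 0.02 to 1.08 in the same libraries.

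Also called higher were Exo1, the nuclease that resects broken ends, at 1.05 (adjusted p = 0.0664), Bard1, the partner of BRCA1, at 0.76 (0.0741) and Rad54b, a relative of RAD54L, at 0.55 (0.0629). Rad54b (chr4:11558922-11615805) was at 5.68, 5.86 and 4.57 FPKM in WT hepatocytes and at 8.27, 8.93 and 7.04 FPKM in Cdk1 Liv-/- hepatocytes. The groups did not overlap, but these levels may hold reads of Fsbp, a gene annotated on the same strand that shares exon bases with it. Brca2 (chr5:150522630-150570329), which acts after resection to prepare the ends for strand exchange, was at 6.5, 7.05 and 5.76 FPKM in WT hepatocytes and at 7.82, 8.98 and 6.74 FPKM in Cdk1 Liv-/- hepatocytes. The groups overlapped, and the log2 fold change of 0.26 (SE 0.14) had an adjusted p of 0.273. Palb2, which joins BRCA1 to BRCA2, had 0.77 and an adjusted p of 0.101, just past the threshold, and Rad50 (0.38), Rad52 (0.36) and Nbn (0.16) were not called either.

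Of the 11 Fanconi pathway genes, 5 were called higher in hepatocytes, where 12.1% of all genes were, and 1 lower, where 6.61% were. Those called higher were Fanca of the core complex at a log2 fold change of 1.06 (adjusted p = 0.0211), Fanci and Fancd2, the pair of proteins that the core complex marks with ubiquitin, at 1.00 (0.0492) and 0.83 (0.0659), Fancg of the core complex at 0.91 (0.026), and Brip1, a helicase bound to BRCA1, at 0.80 (0.0763). Fanci (chr7:79391929-79450264) was at 1.37, 0.96 and 0.9 FPKM in WT hepatocytes and at 2.42, 3.66 and 2.01 FPKM in Cdk1 Liv-/- hepatocytes. Fancg (chr4:43002343-43010506) was at 1.5, 1.72 and 1.59 FPKM in WT hepatocytes and at 4.16, 3.52 and 2.78 FPKM in Cdk1 Liv-/- hepatocytes. For both genes all Cdk1 Liv-/- libraries were above all WT libraries. Fancb (0.77, adjusted p = 0.107), Fancm (0.40), Fancc (0.36) and Fancf (0.10) were not called.

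Fance (chr17:28313519-28326572), the core subunit that contacts FANCD2, was at 7.1, 6.66 and 6.16 FPKM in WT hepatocytes and at 4.48, 4.71 and 5.23 FPKM in Cdk1 Liv-/- hepatocytes. It was the member called lower in hepatocytes, with a log2 fold change of -0.43 (SE 0.11, adjusted p = 0.0675), and its groups did not overlap. The call of Fance was lost when FPKM were rescaled to the same sum, and its adjusted p ranged from 0.0232 to 0.199 over the alternatives. Fancl (chr11:26386135-26471876), the ubiquitin ligase of the core complex, was at 7.45, 7.86 and 5.48 FPKM in WT hepatocytes and at 6.47, 8.1 and 5.66 FPKM in Cdk1 Liv-/- hepatocytes. Its groups overlapped, with a log2 fold change of -0.04 (SE 0.19, adjusted p = 0.922).

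None of the 4 end-joining genes was called in hepatocytes by limma on the 6 libraries compared, where their smallest adjusted p was 0.168, for Xrcc5. In the fit on all 12 libraries Xrcc5 had an adjusted p of 0.0434. The log2 fold changes were 0.32 for Xrcc5, which codes for Ku80, 0.29 for Lig4, the ligase that seals the ends, and 0.15 for Prkdc, the kinase that Ku recruits. Xrcc6 (chr15:81987835-82040085), which codes for Ku70, was at 9.4, 9.23 and 9.32 FPKM in WT hepatocytes and at 8.91, 10.5 and 9.13 FPKM in Cdk1 Liv-/- hepatocytes. The groups overlapped, and the log2 fold change was 0.03 (SE 0.097, adjusted p = 0.892).

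In the last group, 2 of 6 genes were called higher in hepatocytes, where 12.1% of all genes were. Rad18 (chr6:112619850-112696686), the ubiquitin ligase that marks PCNA so that a fork can pass a lesion, was at 1.71, 1.65 and 1.25 FPKM in WT hepatocytes and at 5.43, 5.21 and 4.14 FPKM in Cdk1 Liv-/- hepatocytes. Its lowest Cdk1 Liv-/- library was far above the highest WT library, and the log2 fold change of 1.41 (SE 0.17, adjusted p = 0.00652) was the largest among the members in this comparison. Ddb1, an adaptor of ubiquitin ligases that recognise DNA lesions, rose by 0.46 on the log2 scale (adjusted p = 0.054). Msh3 (chr13:92211872-92355003), a mismatch sensor, was at 7.34, 7.06 and 5.85 FPKM in WT hepatocytes and at 7.02, 6.61 and 6.29 FPKM in Cdk1 Liv-/- hepatocytes. The groups overlapped, with a log2 fold change of -0.02 (SE 0.12, adjusted p = 0.944). Msh6 (0.18), the other mismatch sensor, Xrcc1 (0.10), the scaffold of single-strand break repair, and Parp1 (0.08), which senses such breaks, were not called.

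**Figure D2:**
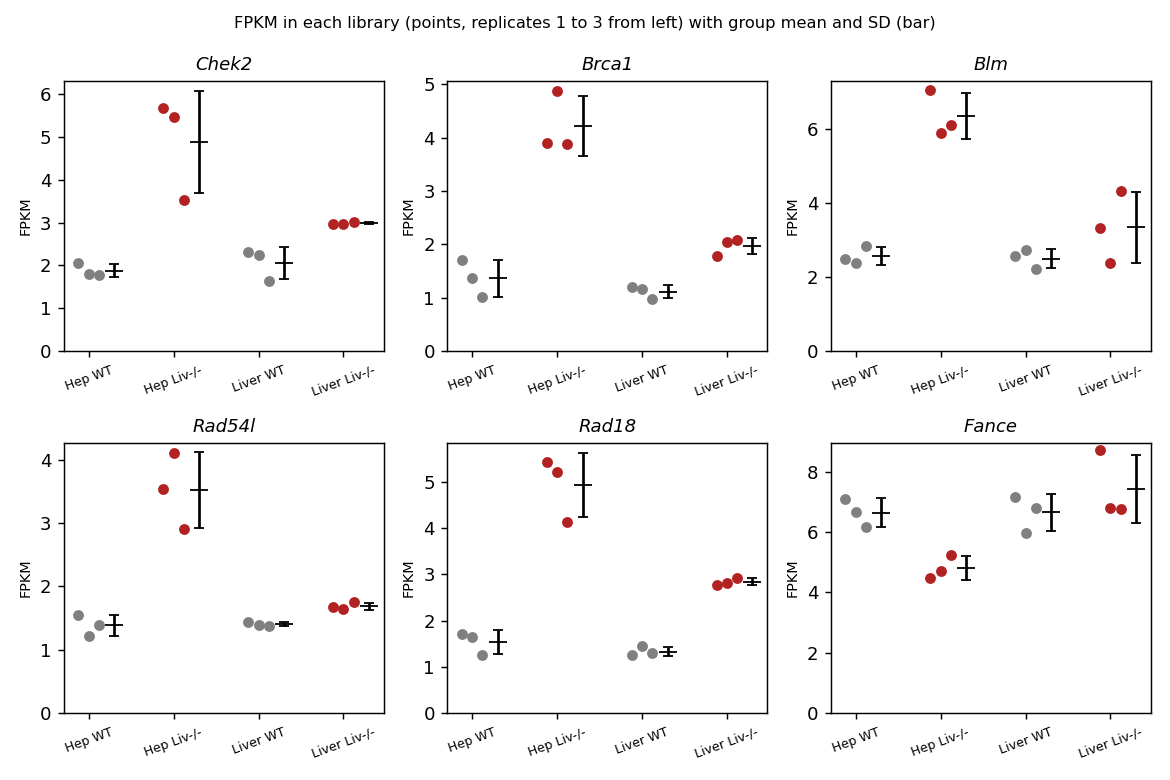
FPKM of 6 members in each library, with the mean and SD of each group of 3 (Hep, isolated hepatocytes; Liv-/-, Cdk1 Liv-/-). For Chek2, Brca1, Blm, Rad54l and Rad18 the Cdk1 Liv-/- hepatocytes sit above WT, and for Fance they sit below, at 4.48 to 5.23 against 6.16 to 7.10 FPKM.

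Promoter sequence was looked at for the 5 members with the largest hepatocyte log2 fold change among those called that have a window in the RefSeq promoter table (GRCm38.p6). The table held 38 of the 47 members, and the first window listed was taken for each gene. The 150 bases before the RefSeq start were searched on both strands for E2F-type letters (TTTCGCGC, TTTGGCGC, TTTCCCGC or TTTGCCGC), for the cell cycle homology region, CHR (TTTGAA or TTCGAA), and for CCAAT. None of the 3 motifs overlapped another in the windows printed. Bases that GENCODE M21 annotates as exon are not printed, and the Blm window, with 77 such bases, is left out. Capitals mark the CCAAT letters, read as ATTGG on the opposite strand.

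Rad18: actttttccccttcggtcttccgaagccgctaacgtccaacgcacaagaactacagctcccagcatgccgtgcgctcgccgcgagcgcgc

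Brca1: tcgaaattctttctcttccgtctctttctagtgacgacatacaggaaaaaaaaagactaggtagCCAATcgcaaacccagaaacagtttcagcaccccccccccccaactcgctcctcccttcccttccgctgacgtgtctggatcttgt

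Chek2: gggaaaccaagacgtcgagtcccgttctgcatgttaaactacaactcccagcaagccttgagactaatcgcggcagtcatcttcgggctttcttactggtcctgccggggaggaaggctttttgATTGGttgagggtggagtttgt

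Rad54l: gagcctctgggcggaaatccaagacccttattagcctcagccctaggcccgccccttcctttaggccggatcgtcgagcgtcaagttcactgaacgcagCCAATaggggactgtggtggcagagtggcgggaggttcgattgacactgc

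The Rad18 stretch (chr6:112696687-112696776) and the Blm window held none of the motifs. Brca1 (chr11:101551956-101552105) had CCAAT 86 to 82 bases before the start, Chek2 (chr5:110839833-110839978) had it on the opposite strand at 26 to 22 bases, and Rad54l (chr4:116123691-116123839) had it at 50 to 46 bases. Chek2 is read on the plus strand and the other stretches on the minus strand of the chromosome. Over all 27025 promoters of the table, 25.3% held CCAAT, 9.89% CHR and 1.26% an E2F-type match in the same 150 bases. Of the 38 members, 13 held CCAAT, 0 CHR and 4 an E2F-type match, namely Topbp1, Mdc1, Fancg and Xrcc6. These are matches of letters, not measured binding, and a window without a match says no more than that these letters are not in it.

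Whole liver was compared next, because it also holds cells of other lineages, which are expected to keep Cdk1. Of the 47 members, 24 were called higher in Cdk1 Liv-/- whole liver, where 38.0% of all genes were, and 1 was called lower, where 7.53% were. All Cdk1 Liv-/- libraries lay above all WT libraries for 24 members, where 43.2% of all genes did, and below for 1, where 8.94% did. Without the library that has Xist, these were 28 members (47.9% of all genes) and 1 (10.6%), though leaving out a library can never lower such counts. The members' median log2 fold change was 0.28. The median over all genes was itself 0.18, so whole-liver values below are also given as the difference from this median. By that difference, 30 of 47 members were above the median gene, and the median member was 0.10 above it.

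Most of the whole-liver calls were lost under a scaling that centres the genes, and none under a scaling to the same sum. The latter left 24 members higher, where 42.3% of all genes were, and 1 lower, where 6.78% were. It put the median of all genes at 0.21. After division by median-ratio size factors, which brought the median of all genes to 0.01, 5 members were called higher, where 18% of all genes were, and 5 lower, where 16.3% were. The members called in the same direction in both were Brca1, Ddb1, Fancc, Rad18, Xrcc2 and Xrcc6. The others then called lower were Fancl, Msh3, Parp1 and Xrcc3. The log2 fold changes of Chek1, Mdc1, Rad51c, Rad51d, Rad50, Nbn, Fance, Fancl, Fancm, Prkdc, Msh6 and Parp1 turned from above 0 to below it. Over all genes, the calls in whole liver went from 6610 higher and 1310 lower to 3121 higher and 2826 lower. In hepatocytes the same step moved the median of all genes from 0.05 to -0.0017 and all calls from 2108 higher and 1149 lower to 1706 higher and 1423 lower, with 15 members higher and 1 lower. Without Cdk1 Liv-/- whole liver replicate 3, the library with Xist, 17 members were called higher in whole liver, where 31.5% of all genes were, and 0 lower, where 5.71% were. The calls lost were those of Bard1, Fanca, Fancb, Fanci, Lig4, Rad54l, Xrcc1 and Xrcc6. The member called lower was also lost without WT replicate 1, WT replicate 2 or Cdk1 Liv-/- replicate 2. Without Cdk1 Liv-/- replicate 1, 2 members were called lower, where 7.45% of all genes were.

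**Figure D3:**
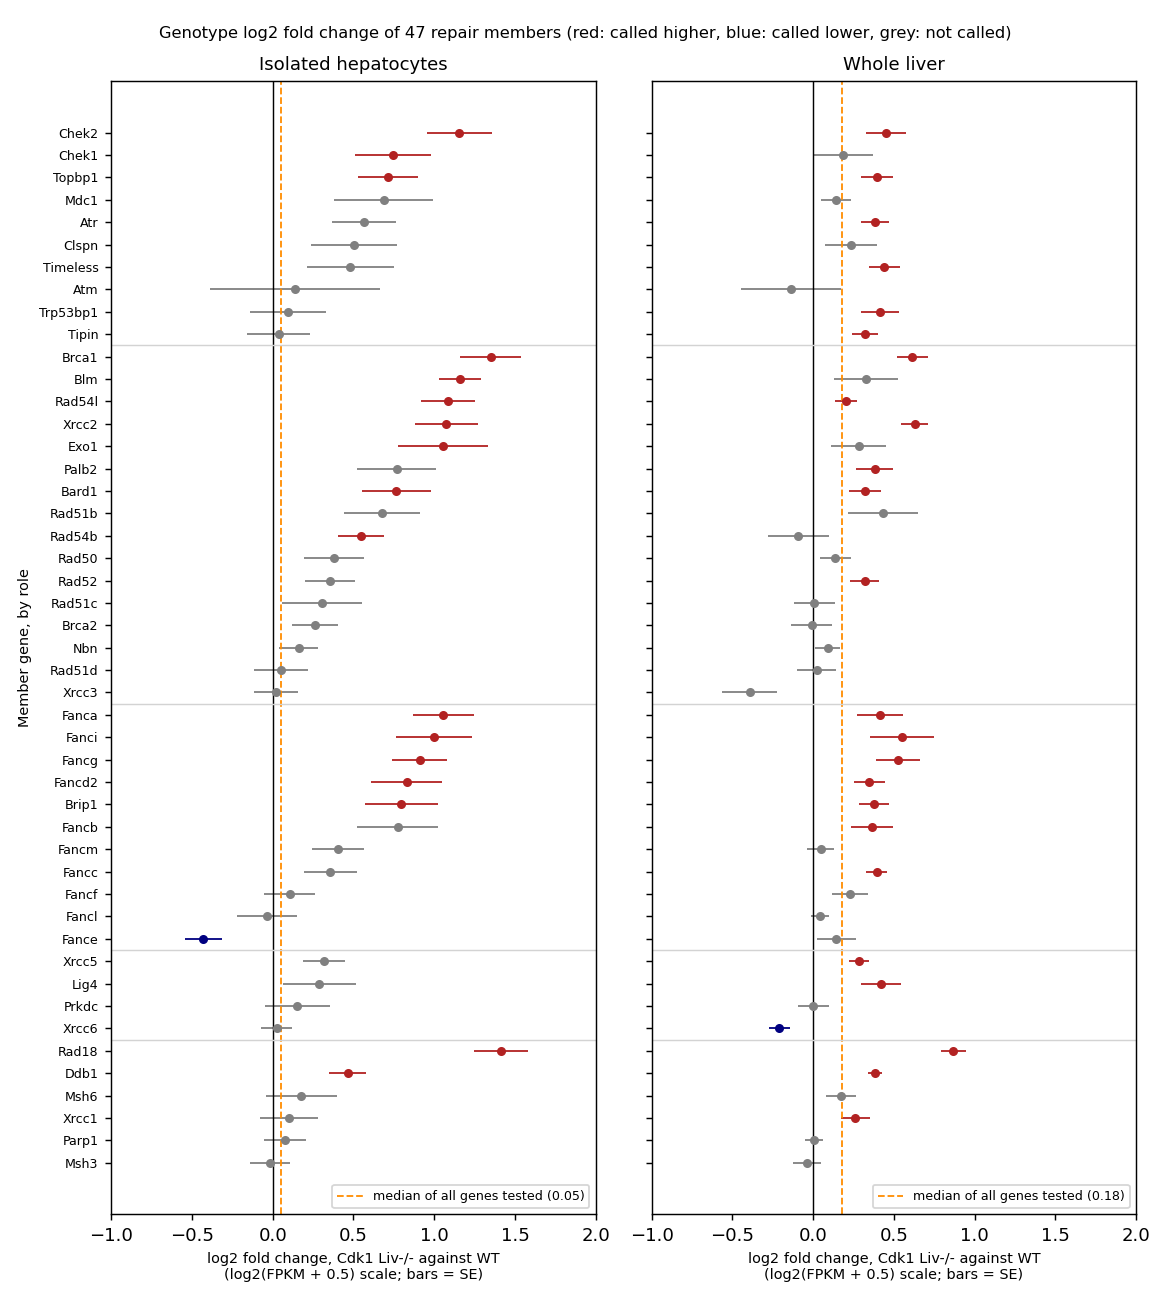
Points give the log2 fold change of each member with its SE, by role, and the dashed line the median of all genes tested (0.05 in hepatocytes, 0.18 in whole liver). In hepatocytes 17 members are red and 1 is blue; in whole liver 24 are red and 1 is blue, and 30 lie to the right of the dashed line.

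Rad18 was at 1.25, 1.44 and 1.3 FPKM in WT whole liver and at 2.77, 2.82 and 2.92 FPKM in Cdk1 Liv-/- whole liver. The groups were far apart next to their spread, with a log2 fold change of 0.87 (SE 0.076, adjusted p = 0.0016), 0.69 above the median gene. Brca1 was at 1.2, 1.16 and 0.98 FPKM in WT and at 1.79, 2.04 and 2.08 FPKM in Cdk1 Liv-/- whole liver, again without overlap. Its log2 fold change was 0.62 (SE 0.095, adjusted p = 0.00748), 0.43 above the median gene. Xrcc2 was at 1.26, 1.28 and 1.09 FPKM in WT and at 2.05, 2.13 and 2.25 FPKM in Cdk1 Liv-/- whole liver. The log2 fold change of 0.63 (SE 0.083, adjusted p = 0.00495) was 0.45 above the median gene.

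Among the kinases, Chek2 was at 2.32, 2.24 and 1.63 FPKM in WT and at 2.96, 2.98 and 3.01 FPKM in Cdk1 Liv-/- whole liver. The groups did not overlap and the log2 fold change of 0.45 (SE 0.12, adjusted p = 0.0368) was 0.27 above the median gene, but with median-ratio size factors the adjusted p was 0.15. Atr was at 3.42, 2.97 and 3.21 FPKM in WT and at 4.12, 4.68 and 4.18 FPKM in Cdk1 Liv-/- whole liver. Its log2 fold change of 0.38 (SE 0.084, adjusted p = 0.0198) was 0.20 above the median gene, and this call too was lost with those factors (adjusted p = 0.162). Chek1 was at 4.31, 5.22 and 3.06 FPKM in WT and at 4.48, 4.42 and 5.36 FPKM in Cdk1 Liv-/- whole liver. The groups overlapped, and its log2 fold change of 0.18 (SE 0.19, adjusted p = 0.475) equalled the median gene to 2 decimals. Atm was at 1.47, 1.31 and 0.56 FPKM in WT and at 1.35, 0.98 and 0.54 FPKM in Cdk1 Liv-/- whole liver, with overlapping groups and a log2 fold change of -0.14 (SE 0.31, adjusted p = 0.76).

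The other mediators called higher in whole liver were Timeless (0.44, 0.26 above the median gene), Trp53bp1 (0.41, 0.23 above), Topbp1 (0.39, 0.21 above) and Tipin (0.32, 0.14 above). Clspn, at 0.24, and Mdc1, at 0.14, were not called. None of the 10 genes of this group was called in whole liver after median-ratio scaling.

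Of the other homologous recombination genes, Rad54l was at 1.44, 1.39 and 1.38 FPKM in WT and at 1.68, 1.64 and 1.75 FPKM in Cdk1 Liv-/- whole liver. The groups did not overlap, and the log2 fold change of 0.20 (SE 0.069, adjusted p = 0.0693) was 0.02 above the median gene. Blm was at 2.57, 2.72 and 2.21 FPKM in WT and at 3.33, 2.38 and 4.32 FPKM in Cdk1 Liv-/- whole liver. Its groups overlapped through Cdk1 Liv-/- replicate 2, and the log2 fold change of 0.33 (SE 0.20) had an adjusted p of 0.239. Brca2 was at 6.67, 7.59 and 5.48 FPKM in WT and at 6.74, 5.93 and 6.82 FPKM in Cdk1 Liv-/- whole liver, with a log2 fold change of -0.0085 (SE 0.13, adjusted p = 0.966). Palb2 (0.38), Bard1 (0.32) and Rad52 (0.32) were called higher, between 0.14 and 0.20 above the median gene.

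The lowest log2 fold change of any member in whole liver belonged to Xrcc3. It was at 2.93, 3.87 and 2.97 FPKM in WT and at 2.95, 1.85 and 2.33 FPKM in Cdk1 Liv-/- whole liver, with overlapping groups. Its log2 fold change of -0.39 (SE 0.17, adjusted p = 0.129) lay 0.58 below the median gene (a difference of -0.58), and with median-ratio size factors it was called lower (adjusted p = 0.0602). Rad54b was at 4.85, 5.08 and 4.24 FPKM in WT and at 4.87, 3.19 and 5.4 FPKM in Cdk1 Liv-/- whole liver, where replicate 2 was the lowest, and the log2 fold change was -0.09 (SE 0.19, adjusted p = 0.731). Rad51b (0.43), Exo1 (0.28), Rad50 (0.14), Nbn (0.09), Rad51d (0.02) and Rad51c (0.0075) were not called.

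In the Fanconi pathway, 7 of 11 genes were called higher in whole liver, where 38.0% of all genes were. Without the library that has Xist, Fanca, Fancb and Fanci lost their call. Fanci was at 1.19, 0.77 and 0.81 FPKM in WT and at 1.84, 1.1 and 1.86 FPKM in Cdk1 Liv-/- whole liver. The groups overlapped, since Cdk1 Liv-/- replicate 2 lay under WT replicate 1, and the log2 fold change was 0.55 (SE 0.20, adjusted p = 0.0789), 0.37 above the median gene. Fancg was at 1.67, 1.5 and 1.73 FPKM in WT and at 2.04, 2.9 and 2.86 FPKM in Cdk1 Liv-/- whole liver, with a log2 fold change of 0.53 (SE 0.14, adjusted p = 0.0316), 0.35 above the median gene. Fanca (0.42), Fancc (0.39), Brip1 (0.38), Fancb (0.36) and Fancd2 (0.35) were called higher as well, and of the 7, Fancc was called after median-ratio scaling (adjusted p = 0.066). Fance was at 7.15, 5.98 and 6.81 FPKM in WT and at 8.73, 6.79 and 6.76 FPKM in Cdk1 Liv-/- whole liver, with overlapping groups and a log2 fold change of 0.14 (SE 0.12, adjusted p = 0.393). Fancf (0.23) and Fancm (0.05) were not called. Fancl, at 7.24, 7.46 and 7.12 FPKM in WT and 7.32, 7.51 and 7.72 FPKM in Cdk1 Liv-/- whole liver, had a log2 fold change of 0.04 and was not called either.

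In the end-joining group the Ku subunits were called in opposite directions in whole liver, and the difference between them was not tested. Xrcc6 was at 10.32, 10.55 and 10.07 FPKM in WT and at 9.55, 8.5 and 8.52 FPKM in Cdk1 Liv-/- whole liver. It was the member called lower, without overlap, and the log2 fold change of -0.21 (SE 0.066, adjusted p = 0.0536) was 0.39 below the median gene (a difference of -0.39). That call was lost without the library that has Xist, and also without WT replicate 1, WT replicate 2 or Cdk1 Liv-/- replicate 2. Xrcc5 was called higher, at 0.28 (SE 0.061, adjusted p = 0.0191), 0.10 above the median gene, but not after median-ratio scaling (adjusted p = 0.459). Lig4 was called higher at 0.42 (adjusted p = 0.0472), and Prkdc was not called at 0.0019.

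Ddb1 rose by 0.38 in whole liver (SE 0.045, adjusted p = 0.00361), 0.20 above the median gene, and was called under median-ratio scaling too (adjusted p = 0.0354). Xrcc1 was called higher at 0.26 (adjusted p = 0.0691), and Msh6 (0.17) and Parp1 (0.0066) were not called. Msh3 was at 6.53, 7.91 and 6.66 FPKM in WT and at 6.79, 6.67 and 7 FPKM in Cdk1 Liv-/- whole liver, with overlapping groups and a log2 fold change of -0.04 (SE 0.086, adjusted p = 0.764).

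Set side by side, 13 members were called higher in both compartments, 4 in hepatocytes alone (Blm, Chek1, Exo1 and Rad54b) and 11 in whole liver alone, and 17 were called in neither. Over all genes tested, 9.27% were called higher in both, 2.75% higher in hepatocytes and not called in whole liver, 28.2% higher in whole liver and not called in hepatocytes, and 48.1% called in neither. Without the library that has Xist, the members were 9, 8, 8 and 21, and the shares of all genes 8.29%, 3.74%, 22.9% and 54.9%. Members called in a single compartment need not differ between compartments, so the genotype effects were compared directly, in an interaction test over all 12 libraries. There 3 members were called higher, where 2.35% of all genes were, and 1 lower, where 7.49% were. Rad54l had the smallest adjusted p, with a hepatocyte log2 fold change larger by 0.88 (SE 0.18, adjusted p = 0.0423). Blm had a difference of 0.83 (SE 0.24, adjusted p = 0.0831) and Brca1 one of 0.73 (SE 0.21, adjusted p = 0.0826). Fance had a difference of -0.57 (SE 0.17, adjusted p = 0.0828). The median interaction was 0.27 for the members and -0.11 for all genes.

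The interaction calls of Blm, Brca1 and Fance stood near the threshold and were lost in most alternatives. Of 19 alternatives run at an adjusted p of at most 0.1, Blm kept its call in 8, Brca1 in 6, Fance in 6 and Rad54l in 18. Leaving out single libraries gave 0 to 4 members called higher and 0 to 1 lower. Without WT hepatocyte replicate 2 (2.34% and 12.8% of all genes) or Cdk1 Liv-/- hepatocyte replicate 3 (2.18% and 3.29%), 4 were higher and 1 lower. Without WT whole liver replicate 1 there were 0 in either direction, where 0.201% of all genes were called higher and 0.247% lower. There were 2 higher and 0 lower without Cdk1 Liv-/- whole liver replicate 3 (1.26% and 3.01% of all genes), WT hepatocyte replicate 1 (1.66% and 3.64%) or Cdk1 Liv-/- hepatocyte replicate 2 (2.80% and 5.99%). Leaving out WT hepatocyte replicate 3, Cdk1 Liv-/- hepatocyte replicate 1, WT whole liver replicate 2 or 3, or Cdk1 Liv-/- whole liver replicate 1 or 2 gave 1 higher, where 0.650% to 1.83% of all genes were, and 0 lower, where 1.53% to 5.38% were. With median-ratio size factors, 6 members were called higher (Rad54l, Blm, Brca1, Chek2, Fanca and Rad18) and 0 lower, and Fance had an adjusted p of 0.189. The same step moved the median of all genes from -0.11 to 0.0089 and all interaction calls from 409 higher and 1303 lower to 538 higher and 490 lower. Set against the median gene, the differences were 0.99 for Rad54l, 0.94 for Blm, 0.84 for Brca1 and -0.47 for Fance. In the fit as first given, Chek2 had a difference of 0.70 (adjusted p = 0.114) and Rad18 one of 0.55 (adjusted p = 0.108).

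The compartments were also compared within each genotype. In WT mice 0 of 47 members differed between isolated hepatocytes and whole liver by limma, where 0.104% of all genes were higher in hepatocytes and 1.42% lower, and 2 members had an unadjusted p under 0.05. By the two-sample test with q-values, 0 members were higher, where 0.201% of all genes were, and 1 was lower, where 2.05% were. Leaving out WT hepatocyte replicate 3 gave 1 member higher and 0 lower, where the calls over all genes grew from 18 higher and 247 lower to 413 higher (2.38%) and 2656 lower (15.3%). In Cdk1 Liv-/- mice 14 members were called higher in hepatocytes than in whole liver, where 8.86% of all genes were, and 1 was called lower, where 35.9% were. Of the 50 cell type markers, 42 were called lower in hepatocytes than in whole liver in Cdk1 Liv-/- mice (38 without the library that has Xist) and 6 in WT mice. The median log2 difference of the endothelial markers was -1.71 in Cdk1 Liv-/- and 0.08 in WT, and that of the Kupffer cell and macrophage markers -1.96 and -0.49, so the level of these markers in hepatocytes next to whole liver moved with genotype. Their part in the members' differences was not tested. The median log2 difference of the members, hepatocytes minus whole liver, was 0.03 in WT and 0.31 in Cdk1 Liv-/-, and that of all genes was -0.10 and -0.19. Brca1 had the largest difference among those called, 0.93 (SE 0.13, adjusted p = 0.00375), which is 1.12 above the median gene, followed by Fancd2 at 0.88 (1.07 above), Rad54l at 0.87 (1.06 above) and Blm at 0.86 (1.05 above). Also called higher were Exo1 (0.84), Rad54b (0.81), Mdc1 (0.78), Rad18 (0.69), Chek2 (0.60), Brip1 (0.60), Xrcc2 (0.56), Fancb (0.54), Fancm (0.52) and Fanca (0.46). Fance was the member called lower, at -0.57 (adjusted p = 0.0196). After median-ratio scaling, 28 members were called higher in Cdk1 Liv-/- hepatocytes than in whole liver and 0 lower, and all calls went from 1540 higher and 6234 lower to 3461 higher and 3742 lower. Timeless, Rad51d, Nbn, Fancf, Fancl, Xrcc5, Msh3 and Parp1 turned from below 0 to above it. In Cdk1 Liv-/- mice, 9, 8 and 9 members were called higher without whole liver replicate 1, 2 or 3, where 5.90%, 5.32% and 4.95% of all genes were. Leaving out hepatocyte replicate 1, 2 or 3 gave 14, 10 and 17, where 10.7%, 7.52% and 6.91% of all genes were. Without hepatocyte replicate 2, 3 members were called lower, where 33.9% of all genes were. The 2 comparisons within genotype use the same libraries as the 2 between genotypes.

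**Figure D4:**
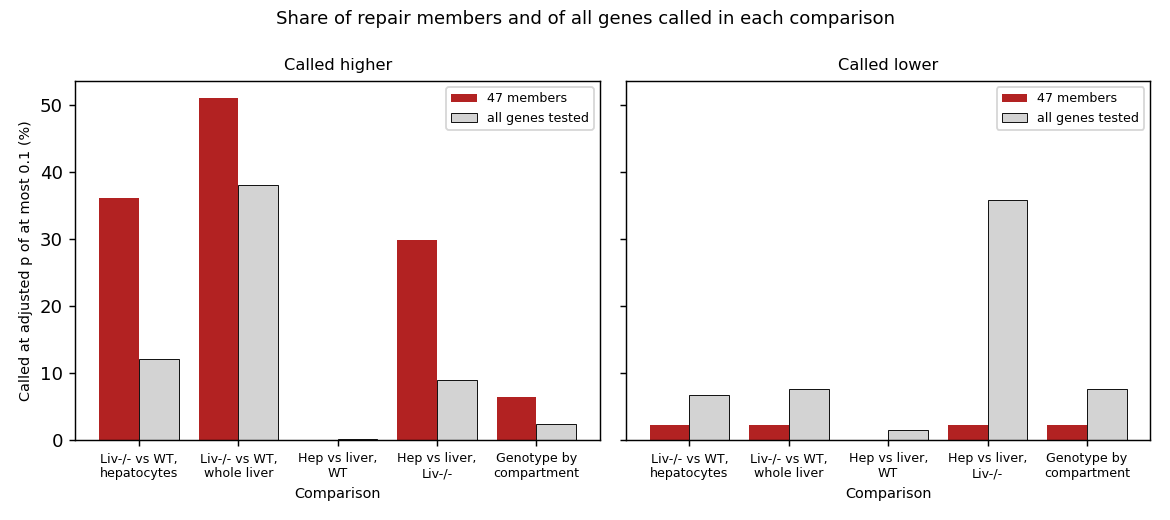
Bars give the percentage of the 47 members (red) and of all genes tested (grey) called higher or lower in each comparison (Hep, isolated hepatocytes; Liv-/-, Cdk1 Liv-/-). The members' share called higher is 36.2% against 12.1% in hepatocytes and 51.1% against 38.0% in whole liver. Without the library that has Xist (not drawn), the whole-liver shares were 36.2% and 31.5%. With median-ratio size factors (not drawn), 5 members were called higher there, where 18% of all genes were.

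Other genes of the same processes were read beside the members. Of 55 other repair genes, 10 (18.2%, where 12.1% of all genes were) were called higher in Cdk1 Liv-/- hepatocytes and 0 lower, and their median was 0.26 on the log2 scale. In whole liver 27 (49.1%, where 38.0% of all genes were) were called higher, and 14 (25.5%, where 31.5% were) without the library that has Xist. These shares are not far from those of all genes. Ube2t, the ubiquitin-conjugating enzyme of the Fanconi core complex, rose by 1.71 in hepatocytes (SE 0.21, adjusted p = 0.00688), more than any member. Polq, a polymerase of an error-prone end-joining route, rose by 1.06 (adjusted p = 0.0227), and Rad51ap1, which binds DNA in homologous recombination, by 0.96 (adjusted p = 0.0594). The smallest values of this list were -0.31 for Rev3l and -0.30 for Ercc1, both uncalled.

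Of 27 cell cycle genes, 9 (33.3%) were called higher in hepatocytes and 0 lower, with a median of 0.60, and 18 (66.7%) were called higher in whole liver, beside the same 12.1% and 38.0% of all genes. Without the library that has Xist, 12 were called higher in whole liver. The largest hepatocyte log2 fold changes were those of Ccnb1 (2.04, adjusted p = 0.0121) and Ccnb2 (1.75, adjusted p = 0.0113), the B-type cyclins, and Rrm2 (1.55, adjusted p = 0.00917), which makes nucleotides for replication. The smallest were -0.07 for Tyms and 0.02 for Cdk2, both uncalled. Of 16 p53 target genes, 13 (81.2%) were called higher in hepatocytes and 14 (87.5%) in whole liver (15 without that library), with a hepatocyte median of 1.46. Phlda3 (2.93), Gdf15 (2.84) and Eda2r (2.59) had the largest hepatocyte values of that list, and Ei24 (0.30) and Sesn2 (0.43), both uncalled, the smallest. Whether the members' levels followed the cell cycle or the p53 response of the same libraries was not tested.

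Of the 47 members, 21 share exon bases with another annotated gene, on the opposite strand in most cases. The library kit keeps the strand, but how strand was used in counting is not given in the sources used here, so such levels may hold reads of the neighbour. Among those described in full these are Atr, Brca2, Fance, Fanci, Fancl, Msh3, Rad54b, Rad54l, Xrcc3 and Xrcc6.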

How the data were processed

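The table of FPKM deposited by the authors was used as it stands. Per the submitters' processing notes, the authors aligned reads to mm10 with STAR, whose version is not given in the sources used here, and computed FPKM with RSEM 1.2.31. How strand was used in counting is not stated there.

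Values were taken as log2(FPKM + 0.5). The 17386 genes with a mean of at least 0.1 FPKM were fitted with limma 3.58.1 in R 4.3.3, with a trend in the variance, on the libraries compared, or on all 12 for the interaction. Adjusted p-values are Benjamini-Hochberg values over all genes tested, and called means an adjusted p of at most 0.1. Tables and figures were made with Python 3.11.15, numpy 2.4.6, pandas 2.3.3 and matplotlib 3.10.9.

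All 47 members are named by role. Values in every library are given for Cdk1, Atm, Atr, Chek1, Chek2, Brca1 and Brca2, for the members with the 5 highest and 5 lowest log2 fold changes in each genotype comparison, and for members called in the interaction. From the lists of other repair, cell cycle and p53 target genes, the 3 largest and 2 smallest hepatocyte log2 fold changes are named, and 1 gene of these lists is not reported here. Members and lists were chosen with earlier results of these data known.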

Additional observations from a re-analysis of the deposited data

Results flagged for a closer look

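The genes below were picked out because the genotype effect in isolated hepatocytes differed from that in whole liver in the interaction test, and each value is the hepatocyte log2 fold change minus the whole-liver one. Among the members these were 0.88 for Rad54l, 0.83 for Blm, 0.73 for Brca1 and -0.57 for Fance. In the other repair genes they were 0.96 for Ube2t (adjusted p = 0.0792) and 0.78 for Polq (adjusted p = 0.0996, next to the threshold). Rrm2 of the cell cycle list had 1.25 (adjusted p = 0.0431) and Eda2r of the p53 target list 1.19 (adjusted p = 0.0362). The count of members whose groups lay apart in opposite directions in hepatocytes and whole liver was 0.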

How the results depend on the processing

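Each comparison holds 3 libraries per group, the labels do not name the animal behind each library, and many whole-liver calls were lost with median-ratio size factors but not with FPKM rescaled to the same sum. The cause of the changes below was not tested. Percentages give the share of all genes called the same way under the same setting. No member called in the comparison as first given changed its direction under an alternative. Of those not called, Fancl and Parp1 changed sign in whole liver and were called lower with median-ratio size factors.

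In isolated hepatocytes, 17 members were called higher (12.1%), and this became 8 with no filter on low values (5.85%), 27 with the fit on all 12 libraries (19.8%), 9 when calls needed an adjusted p of 0.05 (7.49%) and 8 with a log2 fold change of at least 1 (4.20%). Leaving out each library gave 8 to 18. The 1 member called lower became 0 with FPKM rescaled to the same sum, with calls at 0.05 and with a log2 fold change of at least 1, and 0 to 1 when a library was left out. The members' median stayed between 0.35 and 0.53.

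In whole liver, 24 members were called higher (38.0%), which became 5 with median-ratio size factors (18%), 13 with the fit on all 12 libraries (28.3%) and 0 with a log2 fold change of at least 1 (4.59%). The 1 called lower (7.53%) became 5 with median-ratio size factors (16.3%), 2 by the two-sample test with q-values (11.9%), 2 with the fit on all 12 libraries (5.54%), 0 with calls at 0.05 and 0 with a log2 fold change of at least 1, and 0 to 2 when a library was left out. The members' median ranged from 0.098 to 0.33.

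Between WT hepatocytes and WT whole liver, 0 members were called. The two-sample test gave 1 lower (2.05%), and leaving out a library gave 0 to 1 higher. The median of 0.033 ran from -0.031 to 0.079 with a library left out and was 0.14 with median-ratio size factors. Between Cdk1 Liv-/- hepatocytes and whole liver, 14 called higher (8.86%) became 28 with median-ratio size factors (19.9%), 24 by the two-sample test (13.9%), 22 with the fit on all 12 libraries (11.1%), 0 with a log2 fold change of at least 1 (1.51%), and 8 to 17 when a library was left out. The 1 called lower (35.9%) became 0 with median-ratio size factors (21.5%), 3 by the two-sample test (44.8%), 3 with the fit on all 12 libraries (39.9%), 0 with a log2 fold change of at least 1, and 1 to 3 when a library was left out. The median of 0.31 ranged from 0.21 to 0.51.

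In the interaction, 3 called higher (2.35%) became 1 with no filter on low values (0.846%), 6 with median-ratio size factors (3.09%), 1 with calls at 0.05 (0.546%) and 0 with a difference of at least 1 (0.805%), and 0 to 4 when a library was left out. The 1 called lower became 0 with no filter, with median-ratio size factors, at 0.05 and with a difference of at least 1, and 0 to 1 when a library was left out. The median of 0.27 ranged from 0.17 to 0.37. The two-sample test and the fit on all 12 libraries are not given for the interaction, since that test already uses all 12.

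With median-ratio size factors, the hepatocyte log2 fold change turned to -0.036 for Tipin, -0.020 for Rad51d, -0.048 for Xrcc3 and -0.049 for Xrcc6. In whole liver it turned to -0.013 for Chek1, -0.040 for Mdc1, -0.16 for Rad51c, -0.18 for Rad51d, -0.048 for Rad50, -0.11 for Nbn, -0.062 for Fance, -0.16 for Fancl, -0.069 for Fancm, -0.12 for Prkdc, -0.028 for Msh6 and -0.21 for Parp1. With FPKM rescaled to the same sum, the whole-liver value of Brca2 turned to 0.024.

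Leaving out each library in turn took the hepatocyte log2 fold change across 0 for Atm (-0.27 to 0.63), Tipin (-0.12 to 0.23), Trp53bp1 (-0.081 to 0.28), Rad51d (-0.059 to 0.20), Xrcc3 (-0.064 to 0.079), Fancl (-0.18 to 0.075), Xrcc6 (-0.044 to 0.068), Prkdc (-0.0042 to 0.26), Msh3 (-0.11 to 0.042), Msh6 (-0.011 to 0.34), Parp1 (-0.037 to 0.19) and Xrcc1 (-0.0053 to 0.29). In whole liver it did so for Atm (-0.41 to 0.087), Chek1 (-0.0025 to 0.34), Brca2 (-0.12 to 0.093), Rad51c (-0.074 to 0.11), Rad51d (-0.056 to 0.11), Rad54b (-0.23 to 0.11), Fancm (-0.015 to 0.094), Prkdc (-0.069 to 0.048), Msh3 (-0.084 to 0.045) and Parp1 (-0.019 to 0.043).

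Libraries share a replicate number, but nothing ties equal numbers together. After group means were removed, libraries with the same number correlated at -0.317 to 0.239, with 2 of 18 pairs over 0.1, and those with different numbers at -0.223 to 0.265, with 9 of 36, so no pairing was used. With the replicate block, the members called higher and lower were 7 and 0 in hepatocytes (6.03% and 2.35% of all genes), 18 and 0 in whole liver (32.0% and 5.99%) and 1 and 0 in the interaction (1.16% and 2.62%). Between Cdk1 Liv-/- hepatocytes and whole liver they were 12 and 1 (6.52% and 29.4%). Of the calls as first given, the block kept 7 of 18 in hepatocytes, 18 of 25 in whole liver and 1 of 4 in the interaction. Those it ended included the hepatocyte call of Fance (adjusted p 0.199) and the whole-liver call of Xrcc6 (0.104).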
